A study of Mus musculus with 9 samples.

Results

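Cathepsins are the proteases that digest proteins inside lysosomes. The 10 genes described here, Ctsa, Ctsb, Ctsc, Ctsd, Ctsh, Ctsk, Ctsl, Ctso, Ctss and Ctsz, were chosen by name from the 21935 genes of a kidney RNA-seq count table, and all 10 were among the 14069 genes with enough counts to be tested. The table holds 9 libraries from C57BL/6 mice labelled female, 3 in each of 3 groups. Wild type (WT) control mice (Con) received 0.5 ml of saline into the peritoneum at 4 weeks of age, although the treatment entry of their labels reads none. WT mice with pristane-induced lupus (PIL) received 0.5 ml of pristane, a hydrocarbon oil that provokes a lupus-like disease, by the same route at 4 weeks of age. The last group (GKO) carried a knockout of Gsdmd, the gene of the pore-forming protein gasdermin D, written Gsdmd-/-. The study describes these knockouts as pristane-treated, whereas the treatment entry of their labels reads none. No injected volume or age at injection was assigned to them here. Kidneys were taken 31 weeks after injection. The knockout is a conventional one, not limited to a cell type. Nothing in the labels ties a library to 1 animal, so p-values measure the spread between these libraries, which may be technical.

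Most cathepsins are cysteine proteases of the papain family, Ctsd is an aspartic protease and Ctsa a serine carboxypeptidase. They are made as inactive proenzymes, tagged with mannose 6-phosphate, carried to acidic lysosomes and activated there by cleavage, while cystatins block those that escape. In the kidney the proximal tubule uses them to break down filtered proteins, and macrophages and other antigen-presenting cells use them to digest taken-up material and to prepare MHC class II molecules for peptide loading.

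The libraries held 13311063 to 16299328 counts. Values are given as CPM, the count of a gene scaled to library size, after TMM scaling, which adjusts for differences in library composition, and, wherever one gene is set against another, as FPKM, which divides by gene length. Gsdmd checked the knockout label. It stood at 7.06, 11.6 and 4.40 CPM in the saline libraries, 6.56, 20.1 and 10.7 CPM in PIL and 2.06, 2.04 and 1.61 CPM in Gsdmd-/-. The knockout libraries lay below both other groups, with 30, 27 and 24 reads left on the gene (log2 fold change against PIL -2.71 ± 0.48 SE, adjusted p = 0.127 by edgeR, exact permutation p = 0.1, the smallest that 3 against 3 can give). DESeq2 (adjusted p = 1.69e-05), limma-voom (adjusted p = 0.000908) and edgeR without PIL-3 (adjusted p = 0.014) called this difference. PIL against saline gave 0.70 (adjusted p = 0.319 by edgeR). The saline libraries went against their sex label. Reads on 4 genes of the Y chromosome (Uty, Kdm5d, Ddx3y and Eif2s3y) came to 1854, 1882 and 3077 counts in them, and to 0 in each of the 6 other libraries. In every comparison with the saline group, pristane or genotype and this Y-linked signal cannot be told apart, and the group could not be left out. Only Gsdmd-/- against PIL is free of it. If the treatment entry of the knockout labels, none, holds, genotype and pristane cannot be told apart in that comparison either. The 12 proximal tubule markers were present throughout, at a summed 10862 to 24928 CPM.

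The promoters of the genes that moved most and of those with a lysosomal motif are shown because they can be read next to the values. RefSeq promoter windows (GRCm38.p6, the build of the counts) were found for 8 of the 10 genes, in 9 windows, since Ctsa has 2, while Ctsb and Ctsh had no entry. Each window ran from 250 bases before the annotated start to 50 after it, and the stretches below stop 30 bases after it. They were searched on both strands for 3 motifs that do not overlap one another in these windows. CACGTG is the E-box at the core of the CLEAR element, through which TFEB controls lysosomal genes. GAGGAAGT is a site type of PU.1, the ETS factor of myeloid cells, and TGANTCA is the AP-1 site. Capitals mark the matches. Positions are counted from the RefSeq start, with 1 the first base transcribed from that start and -1 the base before it.
Ctss, chr3:95526536-95526815 (+ strand): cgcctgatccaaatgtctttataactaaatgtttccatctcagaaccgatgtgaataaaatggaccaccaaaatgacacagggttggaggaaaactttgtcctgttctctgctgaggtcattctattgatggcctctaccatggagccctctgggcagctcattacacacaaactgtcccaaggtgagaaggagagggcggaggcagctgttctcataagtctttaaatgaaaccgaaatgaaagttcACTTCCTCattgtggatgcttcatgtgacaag
Ctsc, chr7:88277835-88278114 (+ strand): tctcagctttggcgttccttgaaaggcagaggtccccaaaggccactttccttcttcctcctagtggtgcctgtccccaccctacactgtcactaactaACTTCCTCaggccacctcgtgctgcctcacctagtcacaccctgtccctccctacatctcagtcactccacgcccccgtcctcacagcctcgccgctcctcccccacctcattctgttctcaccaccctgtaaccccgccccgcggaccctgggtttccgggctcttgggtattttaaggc
Ctsk, chr3:95498960-95499239 (+ strand): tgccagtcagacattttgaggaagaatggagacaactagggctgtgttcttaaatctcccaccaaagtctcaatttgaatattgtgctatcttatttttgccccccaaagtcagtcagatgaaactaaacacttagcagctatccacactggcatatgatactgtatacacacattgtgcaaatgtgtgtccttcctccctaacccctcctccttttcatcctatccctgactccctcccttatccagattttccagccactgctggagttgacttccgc
Ctsd, chr7:142387798-142388077 (- strand): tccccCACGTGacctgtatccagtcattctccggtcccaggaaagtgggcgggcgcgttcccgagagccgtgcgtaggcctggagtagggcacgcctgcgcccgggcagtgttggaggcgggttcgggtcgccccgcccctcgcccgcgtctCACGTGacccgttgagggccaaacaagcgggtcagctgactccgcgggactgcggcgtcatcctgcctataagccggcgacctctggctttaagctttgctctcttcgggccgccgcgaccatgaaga
Ctsa, chr2:164833523-164833802 (+ strand): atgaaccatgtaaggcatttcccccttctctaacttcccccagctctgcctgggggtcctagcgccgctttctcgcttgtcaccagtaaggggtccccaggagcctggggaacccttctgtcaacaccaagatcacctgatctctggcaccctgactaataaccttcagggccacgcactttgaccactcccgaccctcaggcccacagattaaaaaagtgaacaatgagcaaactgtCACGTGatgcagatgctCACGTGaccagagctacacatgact
Ctsl, chr13:64370491-64370770 (- strand): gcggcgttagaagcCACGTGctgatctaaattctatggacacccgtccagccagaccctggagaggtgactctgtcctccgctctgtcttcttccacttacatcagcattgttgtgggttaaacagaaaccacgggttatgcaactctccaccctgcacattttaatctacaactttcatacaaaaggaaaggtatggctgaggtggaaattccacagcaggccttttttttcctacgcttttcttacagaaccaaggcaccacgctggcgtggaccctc
The Ctss and Ctsc stretches each hold 1 match to GAGGAAGT on the reverse strand, which reads ACTTCCTC in the printed direction, starting at -2 in Ctss and at -151 in Ctsc. The Ctsd stretch holds CACGTG at -245 and -98, and the second Ctsa stretch at -12 and 6. The Ctsl stretch holds 1 CACGTG, at -236. In the count table these genes begin further upstream, Ctsl at 64370890 and Ctsd at 142388038 (- strand) and Ctsa at 164832873 (+ strand). By those bounds the Ctsl match, the Ctsa matches and the Ctsd match at -98 lie inside the gene. Across all 32851 RefSeq promoter windows, 7.15% hold CACGTG, 3.2% hold GAGGAAGT and 7.81% hold TGANTCA. Of the 9 cathepsin windows, 3 hold CACGTG, 2 hold GAGGAAGT and 0 hold TGANTCA, and the Ctsk window holds none of the motifs. A match describes letters in a window and does not show binding.

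The members that differed most between PIL and the other groups are known from immune cells and bone. Ctss, Ctsk and Ctsc were the members whose levels varied most over the 9 libraries, by 15.0, 8.92 and 4.22 times between the lowest and the highest library. Ctsh and Ctso varied least, by 1.47 and 1.49 times. The plot of all members by library shows both ends of this range.

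**Figure D1:**
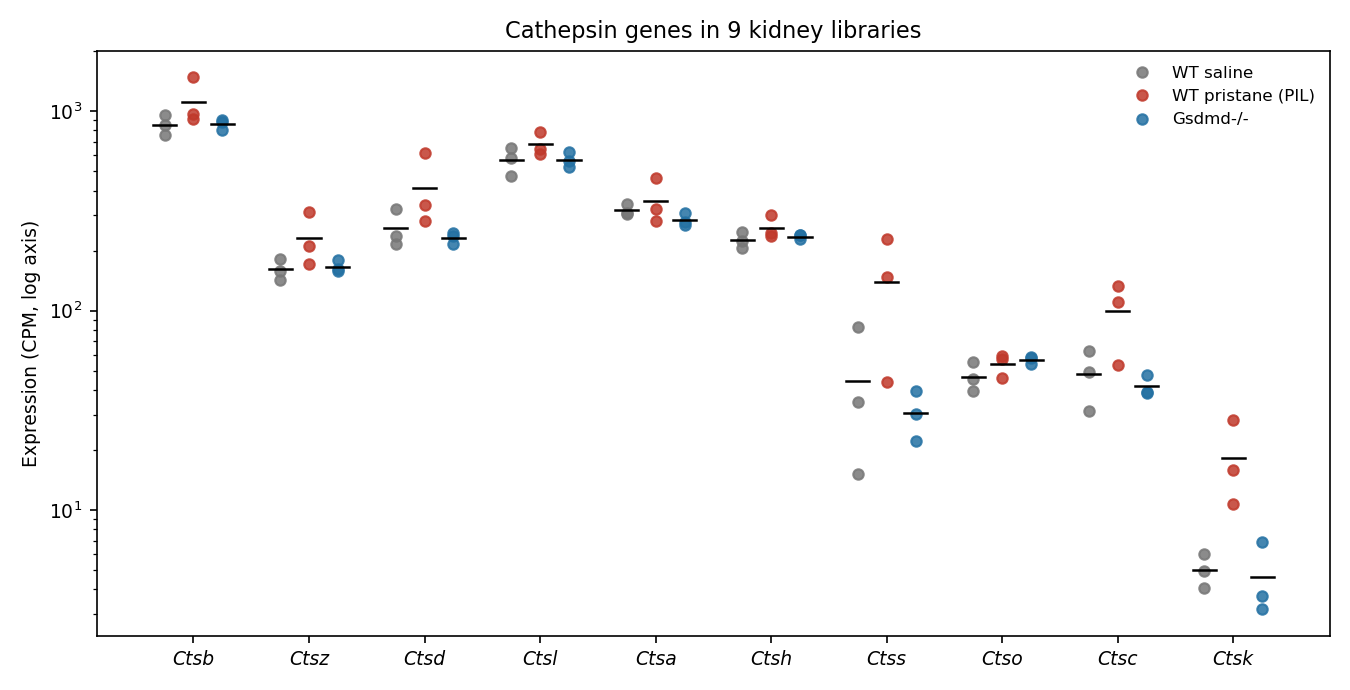
Level of each cathepsin gene (CPM, log axis) in every library, 3 points a group, with bars at the group means. Ctss, Ctsc and Ctsk have PIL points far above the rest, Ctsk alone with all 3 PIL points above all saline points, and Ctsh and Ctso hardly spread.

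Cathepsin K, encoded by Ctsk, is the collagen-cleaving protease of osteoclasts and is made by activated fibroblasts and some macrophages. It was the lowest of the 10 per length, at 3.19 FPKM on average in saline kidneys. Its CPM was 6.03, 4.93 and 4.07 in the saline libraries and 28.4, 15.9 and 10.7 in PIL. The Gsdmd-/- libraries gave 6.93, 3.18 and 3.68 CPM. All PIL libraries stood above all others. Ctsk rose in PIL against saline (log2 fold change 1.87 ± 0.40 SE, adjusted p = 0.027 by edgeR), the only member called there. Against PIL, the log2 fold change in Gsdmd-/- was -1.99 ± 0.40 SE (edgeR, adjusted p = 0.127) and did not pass. Against saline it was -0.12 ± 0.41 (adjusted p = 0.942). The call of Ctsk in PIL rested on all the saline libraries and on PIL-1 and PIL-2: without any one of them the adjusted p by edgeR was between 0.0547 and 0.0808. With only the 6 libraries of the 2 groups in the fit it was 0.0683.

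Cathepsin S, encoded by Ctss, stays active at neutral pH and removes the invariant chain (Cd74) from MHC class II molecules in antigen-presenting cells. Its CPM was 34.6, 83 and 15.2 in saline, 228, 147 and 43.6 in PIL and 30.4, 22 and 39.3 in Gsdmd-/-. PIL-3 lay among the saline values, so the groups overlapped, while every Gsdmd-/- library lay below every PIL library. The log2 fold changes by edgeR were 1.66 ± 0.66 SE in PIL against saline (adjusted p = 0.144) and -2.19 ± 0.67 SE in Gsdmd-/- against PIL (adjusted p = 0.159). Neither passed the threshold. The Gsdmd-/- against saline value, -0.53 ± 0.65 SE (adjusted p = 0.807), turned to 0.30 without Con-2, the saline library with the highest Ctss.

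Cathepsin C, encoded by Ctsc, is the dipeptidyl peptidase that activates granule serine proteases such as neutrophil elastase and granzymes. It stood at 49.4, 62.5 and 31.4 CPM in saline, 133, 111 and 53.4 CPM in PIL and 38.6, 39 and 47.7 CPM in Gsdmd-/-. PIL-1 and PIL-2 were the highest, PIL-3 overlapped with the saline range, and Gsdmd-/- lay below PIL throughout. PIL against saline gave a log2 fold change of 1.05 ± 0.33 SE (edgeR, adjusted p = 0.0823), and Gsdmd-/- against PIL -1.25 ± 0.33 SE (adjusted p = 0.135). Ctsc was next to Ctsk in p among the members in both comparisons.

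Ctsk and Ctss are neighbours on chromosome 3 (mm10, positions 95499256 to 95509362 and 95526786 to 95556403), both on the plus strand and 17423 bases apart with 0 protein-coding genes between them. Ctsc lies on chromosome 7 at 88278085 to 88310888. No annotated gene shares exon bases with these 3. Exon bases are shared with another gene in Ctsa (Neurl2 and Pltp), Ctsb (Fdft1), Ctsd (Gm49369), Ctsl (Gm47123 and Gm49230) and Ctsz (Nelfcd). The sources used here do not give the strand setting of the counting, so reads of these 5 members may be shared with those neighbours.

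The broadly expressed endopeptidases moved less. Ctsd, the main aspartic protease of lysosomes, stood at 237, 322 and 216 CPM in saline, 615, 339.5 and 282 CPM in PIL and 237, 244 and 216 CPM in Gsdmd-/-. All 3 Gsdmd-/- libraries lay below all PIL libraries, and PIL-3 overlapped with saline. The log2 fold changes were 0.68 ± 0.27 SE in PIL against saline (edgeR, adjusted p = 0.15) and -0.83 ± 0.27 SE in Gsdmd-/- against PIL (adjusted p = 0.175). Ctsb, which also trims dipeptides from chain ends, had the highest level per length in every group, at 849.6, 954 and 756 CPM in saline, 1478, 964 and 909 in PIL and 804, 900.2 and 885 in Gsdmd-/-. PIL-1 alone stood well above the rest, and the log2 fold change of PIL against saline was 0.39 ± 0.20 SE (adjusted p = 0.227 by edgeR). Ctsl, an endopeptidase of tubule lysosomes and of the thymus, ranged from 472 to 788 CPM over the 9 libraries. Its highest library was PIL-1, and its log2 fold change in PIL was 0.26 ± 0.16 SE (edgeR, adjusted p = 0.308). Ctso, a little studied papain-family member, ranged from 39.7 to 59.2 CPM and had a log2 fold change of 0.21 ± 0.15 SE in PIL (edgeR, adjusted p = 0.369).

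The exopeptidases trim peptides from their ends. Ctsz, a carboxypeptidase that takes off single residues, stood at 158, 182 and 143 CPM in saline, 311, 211 and 172 CPM in PIL and 159, 179 and 161 CPM in Gsdmd-/-. PIL-1 and PIL-2 lay above all other libraries and PIL-3 did not. The log2 fold changes were 0.52 ± 0.20 SE in PIL against saline (edgeR, adjusted p = 0.138) and -0.48 ± 0.20 SE in Gsdmd-/- against PIL (adjusted p = 0.228). Ctsa, the protective partner of lysosomal galactosidase and neuraminidase, ranged from 269 to 459.9 CPM, with PIL-1 at the top. Its log2 fold change in PIL against saline was 0.16 ± 0.18 SE (edgeR, adjusted p = 0.581) and became -0.07 without PIL-1. Ctsh, an aminopeptidase, ranged from 206 to 302 CPM with its highest value in PIL-2, and gave 0.20 ± 0.13 SE (edgeR, adjusted p = 0.328).

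Counted together, edgeR called 1 of the 10 cathepsins higher and 0 lower in PIL against saline, beside 4.48% of all 14069 genes called higher. Groups that do not overlap with PIL higher were found for 1 member, beside 13.4% of all genes. The log2 fold changes of all 10 were positive, with a median of 0.45, where the median of all genes was 0.01. At an unadjusted p under 0.05 there were 5 members and 27.6% of all genes. Without PIL-3, 5 members were called (Ctsd, Ctsz, Ctsk, Ctsc and Ctss), beside 25.7% of all genes in either direction. Without PIL-1, PIL-2 or any one saline library, 0 were called by edgeR.

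In Gsdmd-/- against PIL, edgeR called 0 of the 10 members and 0% of all genes. At an unadjusted p under 0.05 it found 5 members and 20.9% of all genes, while DESeq2 called 2 members (Ctsk and Ctsc) beside 6.24% of all genes and limma-voom 6 beside 45.8%. The log2 fold change was negative for 9 members, all but Ctso, with a median of -0.42 where all genes had a median of -0.00066. The groups did not overlap, with Gsdmd-/- lower, for 5 members (Ctsb, Ctsc, Ctsd, Ctsk and Ctss), beside 14.1% of all genes. Without PIL-3, edgeR called 5 members, beside 22.3% of all genes.

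Gsdmd-/- against saline gave 0 calls among the members by edgeR, beside 3.01% of all genes, and 0 members whose groups did not overlap, beside 24.8%. Here 0 members had an unadjusted p under 0.05, against 14.6% of all genes, DESeq2 called 0 members beside 6.46% of all genes and limma-voom 1 (Ctso) beside 15.6%. Log2 fold changes were positive for 5 members and negative for 5, from -0.53 in Ctss to 0.28 in Ctso. The comparisons share libraries, so their values are set side by side and not tested against each other.

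**Figure D2:**
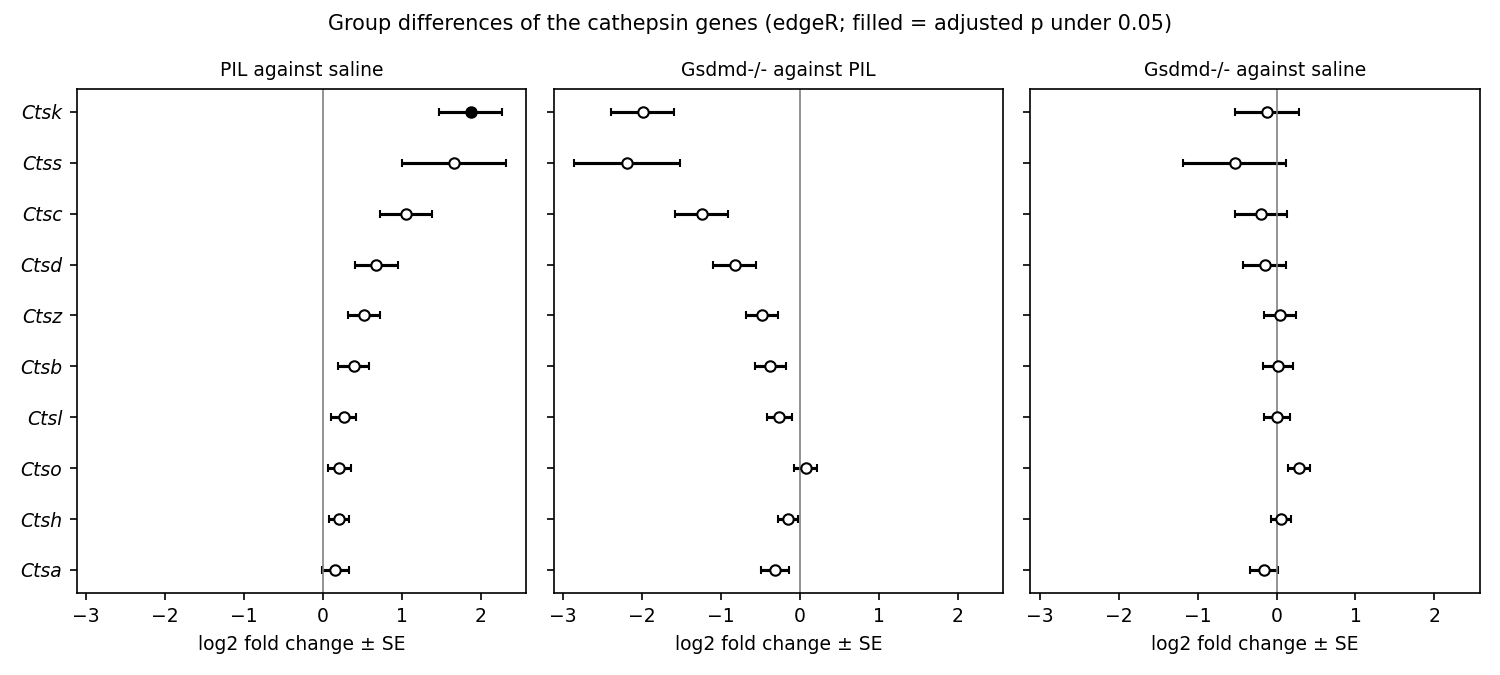
Log2 fold change ± SE (edgeR) of each cathepsin in PIL against saline, Gsdmd-/- against PIL and Gsdmd-/- against saline. Only Ctsk in PIL against saline is filled (adjusted p = 0.027), and the points of the right panel lie between -0.53 and 0.28.

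The spread within PIL was large. PIL-1 was the highest of all 9 libraries for 8 members and PIL-2 for the other 2, and 8 members fell in the order PIL-1, PIL-2, PIL-3. The largest log2 SD of the 3 groups was in PIL for 8 members, and the smallest was in Gsdmd-/- for 8. The share of all genes with these patterns was not computed. Over all genes, the chi-square per degree of freedom between replicate libraries was 41.5 to 142 in PIL, 26.0 to 51.4 in saline and 7.96 to 13.2 in Gsdmd-/-. The highest of these values were also within PIL, although genes with many counts weigh most in this measure.

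Per length, the order in saline kidneys was Ctsb at 136 FPKM, Ctsz 108, Ctsd 106, Ctsl 84.2, Ctsa 65.1, Ctsh 48.5, Ctss 31.3, Ctso 8.77, Ctsc 7.93 and Ctsk 3.19 FPKM. Ctsz and Ctsd, and Ctso and Ctsc, were closer to each other than the spread between libraries. The Gsdmd-/- order was the same as in saline. By group mean in PIL, Ctss ranked 5 in place of 7 and Ctso was last. Not all PIL libraries followed these ranks. In PIL-3, Ctss at 32.0 FPKM lay below Ctsa (59.6) and Ctsh (52.2). Ctso was last only in PIL-1, and in PIL-3 it stood at 11.1 FPKM, above Ctsc (9.18) and Ctsk (7.06). Summed over the 10 genes, FPKM was 570.3, 693 and 532 in saline, 1327, 895 and 653 in PIL and 584, 597 and 591 in Gsdmd-/-. The PIL and saline sums overlapped (exact permutation p = 0.2, 3 against 3, 2-sided). The PIL and Gsdmd-/- sums did not (exact permutation p = 0.1, the smallest possible).

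Ctss made up 4.36%, 8.44% and 2.02% of the cathepsin FPKM in saline, 13.8%, 12.9% and 4.90% in PIL and 3.82%, 2.60% and 4.88% in Gsdmd-/-. Its share was thus highest in PIL-1 and PIL-2. Between PIL and saline, 2 members had shares that did not overlap: Ctsk was higher (1.29% against 0.539% on average) and Ctsa lower (8.47% against 11.0%), each with an exact permutation p of 0.1, adjusted to 0.5 over the 10 members. Between Gsdmd-/- and PIL, 8 members had shares that did not overlap, all but Ctsb and Ctsl. Each had an exact permutation p of 0.1, adjusted to 0.125. In Gsdmd-/- the shares of Ctsc, Ctsd, Ctsk and Ctss were lower and those of Ctsa, Ctsh, Ctso and Ctsz higher. These are not separate changes, since a fall in any share of a library raises others. Between Gsdmd-/- and saline, Ctso and Ctsz had shares that did not overlap, both higher in Gsdmd-/- (exact permutation p = 0.1 each, adjusted to 0.5). With 3 libraries in each group the smallest possible exact p is 0.1, so no share could pass the threshold of 0.05.

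**Figure D3:**
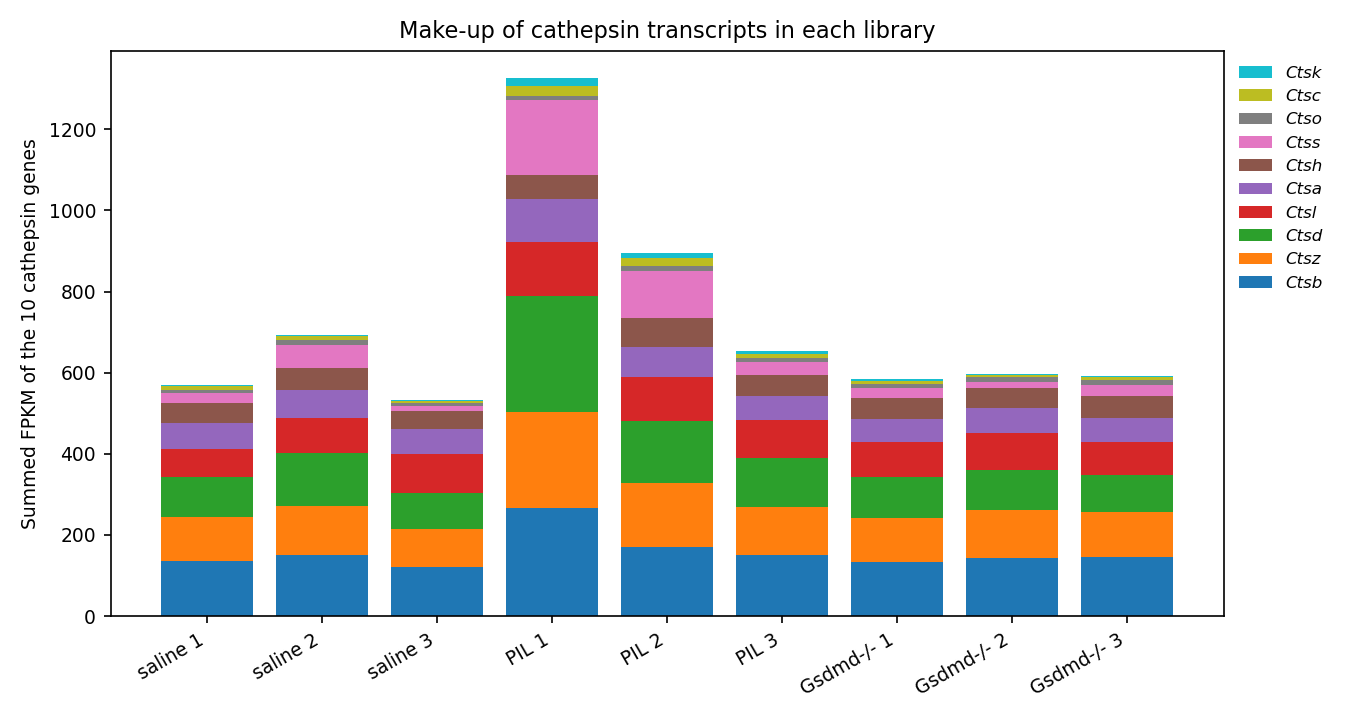
FPKM of the 10 cathepsins stacked for each library. The stack reaches 1327 FPKM in PIL-1 and 895 in PIL-2, PIL-3 at 653 lies within the range of the saline stacks (532 to 693), and the Gsdmd-/- stacks lie between 584 and 597 FPKM.

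Summed macrophage markers fell in the order PIL-1, PIL-2, PIL-3 within PIL, and 12 of the 17 markers did so singly. So did 8 of the 10 cathepsins, with Ctss, Ctsc and Ctsk among them. The summed T and NK cell markers and fibroblast and osteoclast-like markers also fell in this order. The summed B and plasma cell markers and neutrophil markers did not. The 17 markers, of which 16 were tested, summed to 380, 537 and 182 CPM in saline, 2042, 1418 and 482 CPM in PIL and 346, 271 and 428 CPM in Gsdmd-/-, with none at 0 in a library. Of the 16, 9 rose in PIL against saline by edgeR, among them Trem2 (log2 fold change 5.27, adjusted p = 0.00965) and Cd68 (2.27, adjusted p = 0.0174), with a median of 1.93 over the 16. Cd68 was not called without Con-1, Con-3 or PIL-2 (adjusted p up to 0.0782). Gsdmd-/- against PIL had 0 called by edgeR, although all 16 were negative with a median of -2.25. Other immune markers also differed. The 7 B and plasma cell markers tested summed to 260.0, 264 and 134 CPM in saline, 901, 940.5 and 290 CPM in PIL and 201 to 276 CPM in Gsdmd-/-, and edgeR called 3 of them higher in PIL against saline, with a median of 2.07. The 8 T and NK cell markers tested were all positive in PIL against saline (median 0.92) and all negative in Gsdmd-/- against PIL (median -2.11), with 0 called by edgeR in either. The 8 neutrophil markers tested were all negative in Gsdmd-/- against PIL (median -2.56), and 4 of them had groups that did not overlap, beside 14.1% of all genes. In PIL against saline 6 were positive and 2 negative (median 0.47). Of these neutrophil markers, 0 were called by edgeR in any comparison. The 12 proximal tubule markers summed to 19123 to 24389 CPM in saline, 10862, 15625 and 21497 CPM in PIL and 21977 to 24928 CPM in Gsdmd-/-. In these bulk libraries, more cells of a type and more RNA per cell cannot be told apart, and the part of these markers in the cathepsin values was not tested.

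**Figure D4:**
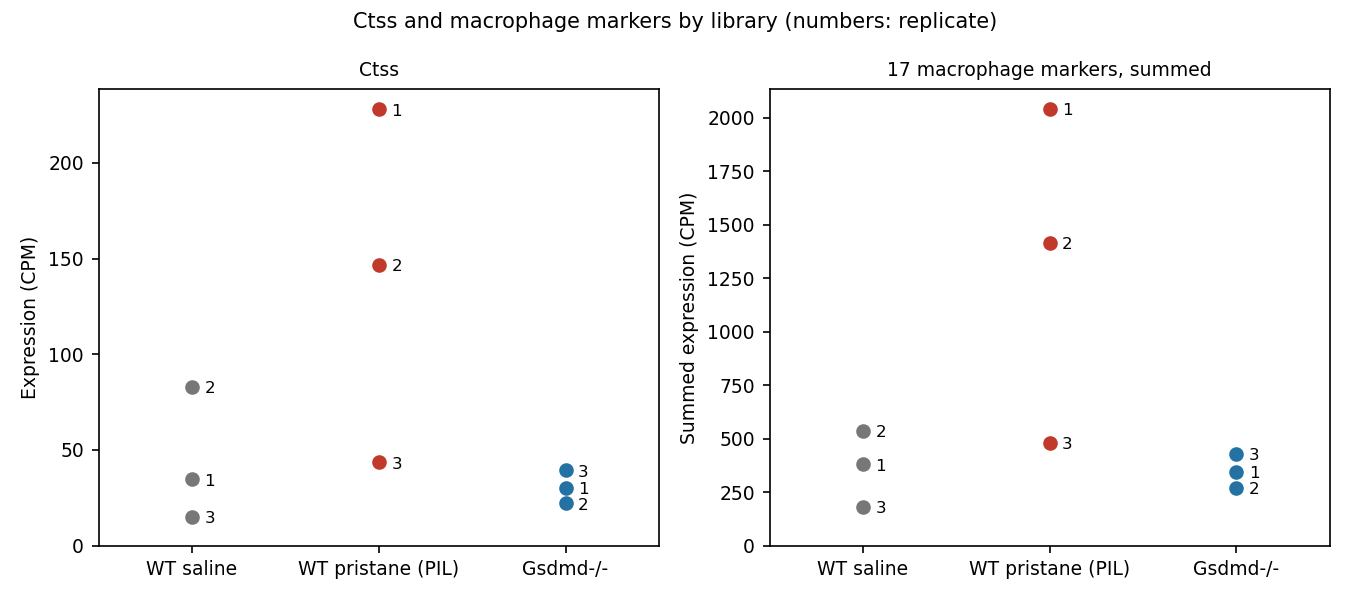
Ctss (CPM, left) and the summed 17 macrophage markers (CPM, right) in each library, with replicate numbers beside the points. In both panels PIL-1 and PIL-2 stand above all other libraries, at 228 and 147 CPM for Ctss, and PIL-3 lies among the saline points.

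Fibroblast and osteoclast-like markers, relevant to Ctsk, summed to 482, 356 and 518 CPM in saline, 1729, 675 and 397 CPM in PIL and 274, 192 and 190.2 CPM in Gsdmd-/-. Of the 9 tested, 2 rose in PIL by edgeR: Pdgfrb, a receptor of perivascular fibroblasts (log2 fold change 1.01, adjusted p = 0.0107), and Calcr, the calcitonin receptor (1.80, adjusted p = 0.0348, at most 2.13 CPM). Leaving out 1 library kept the call of Calcr only for PIL-1 or PIL-3 (adjusted p up to 0.128 otherwise). Of the other 7, 1 had a negative log2 fold change, Postn, a matrix protein of fibroblasts, at -1.68 (adjusted p = 0.0759), with all PIL libraries below all saline libraries. In Gsdmd-/- against saline edgeR called Calcr higher (2.04, adjusted p = 0.0354) and Postn (-3.47, adjusted p = 0.0144) and Dcn (-1.44, adjusted p = 0.0401) lower. Without 1 library Calcr was called there only if that library was PIL-1 or PIL-3 (up to 0.163 otherwise), Dcn only if it was a PIL library (up to 0.181), and Postn was not called without any one Gsdmd-/- library (up to 0.0905). The part of these markers was not tested.

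Genes that work with the cathepsins moved in different ways. The MHC class II list, whose invariant chain Ctss cleaves, had 7 genes tested, Ciita among them. All 7 had positive log2 fold changes in PIL against saline, with a median of 1.28, and edgeR called 0 of them. In Gsdmd-/- all 7 lay below every PIL library, beside 14.1% of all genes, where the median was -1.90 on the log2 scale, and edgeR called 0 of them. Ciita, the gene of this list that switches the others on, is already counted in these values. It gave 10.8, 6.27 and 7.52 CPM in saline, 32.6, 13.7 and 13.2 CPM in PIL and 6.93, 4.47 and 4.75 CPM in Gsdmd-/-. PIL stood above both other groups, with log2 fold changes by edgeR of 1.28 (adjusted p = 0.0701) against saline and -1.88 (adjusted p = 0.127) for Gsdmd-/- against PIL.

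Granule proteases that Ctsc activates were scarce. Of 10 listed, 3 were tested and 0 called by edgeR in any comparison, and their summed CPM was 4.12, 6.12 and 0.881 in saline, 7.79, 20.3 and 1.58 in PIL and 1.92, 1.36 and 1.61 in Gsdmd-/-. PIL-2 was the highest, and Elane, named after its value was seen, stood at 6.86 CPM in it and at 0.299 CPM or less elsewhere.

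The genes tested from a list of cystatins, kininogens and serpins, gathered as inhibitors of cysteine cathepsins, were all positive in PIL against saline. Its tested serpins, Serpinb1a and Serpinb6a, are annotated only as serine (or cysteine) peptidase inhibitors, and whether they act on these members was not tested. Of 17 listed, 7 were tested and 0 called by edgeR, with a median log2 fold change of 0.79. Those with the lowest p were Serpinb6a, a serpin (1.10, adjusted p = 0.0671), Kng1, kininogen (1.79, adjusted p = 0.0742, at most 4.77 CPM), and Cstb, cystatin B (0.79, adjusted p = 0.101). Cstb stood at 55.9, 59.4 and 53.9 CPM in saline, 150.1, 79.5 and 62.3 CPM in PIL and 56.6, 52.6 and 52.5 CPM in Gsdmd-/-. For Cstb every PIL library lay above every other library. In Gsdmd-/- against PIL, 4 of the 7 inhibitors had groups that did not overlap, lower in Gsdmd-/-, beside 14.1% of all genes, and 0 were called.

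Among the 16 genes that sort and process cathepsins, edgeR called 1 lower in PIL against saline and 0 higher. It was Igf2r, the mannose 6-phosphate receptor that carries proenzymes to lysosomes, at 153, 125 and 151 CPM in saline, 56.7, 77.7 and 94.3 CPM in PIL and 99.9, 99.98 and 108 CPM in Gsdmd-/-. The 3 groups did not overlap, and the log2 fold change in PIL was -0.91 ± 0.18 SE (adjusted p = 0.0184 by edgeR). Without Con-1, Con-3 or PIL-2 Igf2r was not called (adjusted p up to 0.0782). The median of the 16 was 0.10.

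Other lysosomal hydrolases and membrane proteins had a median log2 fold change of 0.09 in PIL against saline over 33 tested, beside 0.45 for the cathepsins. Of these, edgeR called 2 higher: Hexa, a hexosaminidase subunit (0.95, adjusted p = 0.049), and Pla2g15, a lysosomal phospholipase (1.15, adjusted p = 0.0296). It called 2 lower: Galns (-1.35, adjusted p = 0.0242) and Arsb (-0.74, adjusted p = 0.0287), both sulfatases. These calls depended on single libraries. Leaving out 1 library kept the call of Hexa only for PIL-3 (adjusted p up to 0.163 otherwise), that of Pla2g15 only for Con-2, PIL-3 or GKO-2 and that of Arsb only for PIL-1 or PIL-3 (up to 0.104 each), and Galns was not called without Con-1 or PIL-2 (up to 0.0887). Galns was also lower in Gsdmd-/- against saline (log2 fold change -1.87, adjusted p = 0.01), but not without Con-1 or any one Gsdmd-/- library (up to 0.0651).

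A list of the remaining cathepsin genes of the mouse, with Tinag and Tinagl1 added, was checked for completeness. Tinag and Tinagl1 are annotated as tubulointerstitial nephritis antigen and its like, not as cathepsins. Of 15 listed, 5 were tested and 0 called by edgeR in any comparison (Ctse, Ctsf, Ctsw, Tinag and Tinagl1). Ctsf was higher in all Gsdmd-/- libraries (96.1, 102 and 87.2 CPM) than in all PIL (81.8, 80.7 and 86.5 CPM) and saline libraries (77.7, 83.1 and 83.5 CPM). Its log2 fold change by edgeR was 0.19 ± 0.10 SE against PIL (adjusted p = 0.275) and 0.22 ± 0.10 SE against saline (adjusted p = 0.337). Ctse, an aspartic protease, gave a log2 fold change of -0.90 ± 0.54 SE in PIL against saline (edgeR, adjusted p = 0.304) and -1.95 ± 0.58 SE in Gsdmd-/- against saline (adjusted p = 0.131). Ctsw, a protease of T and NK cells, was lower in all Gsdmd-/- libraries than in all PIL libraries (log2 fold change -1.83 ± 0.71 SE, adjusted p = 0.206 by edgeR). Ctsg, a serine protease of neutrophil granules named after its values were seen, reached 1.85 CPM in PIL-2 and 0.149 CPM in Con-2 and had 0 counts in the other libraries. The cathepsins of the rodent placenta (Cts3, Cts6, Cts7, Cts8, Ctsj, Ctsm, Ctsq and Ctsr) and Ctsll3 had 0 counts in all libraries, which allows up to 3 counts in each.

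Of all 14069 genes, those whose profile over the 9 libraries was nearest to Ctsk were Loxl1 (root mean square difference of centred log2 CPM 0.21), Cd48 (0.26), Rhoh (0.27) and Snx20 (0.27), where Ctsk itself varied with a root mean square of 0.98. Nearest to Ctsc (0.66) were Csf1 (0.11), Efhd2 (0.12), Unc93b1 (0.13) and Inpp5d (0.14). Nearness describes these libraries only.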

How the data were processed

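The data are read counts and FPKM per gene from 9 kidney libraries. Per the study's methods, the authors isolated RNA with TRIzol, read paired ends on an Illumina Novaseq6000, aligned to mm10 with Hisat2 and counted with HTSeq, and the submitters' processing notes also name TopHat2, with no versions. The deposited read counts are raw counts per gene. The deposited FPKM values are those counts per gene length and library size, as recomputing them showed (ratios of 1 to 1.00001). Whether counting used strand is not stated by the sources used here. Counts were filtered with filterByExpr (14069 of 21935 genes kept), TMM-scaled and tested with edgeR's robust quasi-likelihood test over 3 groups (6 residual degrees of freedom). P-values were Benjamini-Hochberg adjusted over all 14069 genes, with 0.05 as the threshold for a call. A prior count of 2 entered log2 CPM. Summed FPKM and shares were compared with exact 2-sided permutation tests. Replicate libraries differed by more than counting error (chi-square per degree of freedom 7.96 to 142). Limits from a count of 0 cover counting error only.

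The members and gene lists were chosen with earlier results of these data known, and lists are described without a set test. Named beside the members were genes of the partner lists that were called or had the lowest p, up to 3 or 4 per list, and the 4 genes nearest in profile. The counts of calls, the members and the other tested genes named with values, apart from Ctsf, were recomputed in several ways. These were DESeq2, limma-voom with sample weights, upper-quartile or RLE scaling and a replicate block. Further fits were unfiltered, with a minimum of 10 counts per library, on 6 libraries only, at an adjusted p under 0.1 and without each library in turn. DESeq2 on 6 libraries was added after seeing the data. Shares were recomputed from TMM-scaled CPM per kilobase and without each library, and list medians and sums, summed FPKM and nearness of profiles were not recomputed. The software was DESeq2 1.42.0, limma 3.58.1 and edgeR 4.0.16 under R 4.3.3. The edgeR script was tested on simulated counts.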

Additional observations from a re-analysis of the deposited data

How the results depend on the processing

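Upper-quartile or RLE scaling, dropping the filter, a minimum of 10 counts per library and the replicate block left the number of members called as it was in each comparison. In PIL against saline, where 1 was called, DESeq2 called 2 (Ctsk and Ctsc) and 2285 of all genes, limma-voom 8 and 6223, the fit of 6 libraries 0 and 130, and an adjusted p under 0.1 gave 2 and 2281, beside 1072 genes. Leaving out each library gave 0 to 5 members and 226 to 3684 genes. In Gsdmd-/- against PIL, where 0 were called, DESeq2 called 2 members and 878 genes, limma-voom 6 and 6443, DESeq2 on 6 libraries 3 and 997, edgeR on 6 libraries 1 gene, and leaving out each library gave 0 to 5 members and 0 to 3204 genes. In Gsdmd-/- against saline limma-voom called 1 member and 2201 genes. Beside 423 genes, DESeq2 called 909, 6 libraries 766, DESeq2 on 6 libraries 1240, an adjusted p under 0.1 gave 675, and leaving out libraries 105 to 705. The cause of these differences was not tested.

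Same-numbered libraries did not all deviate together. The r was -0.03, 0.19 and 0.29 in PIL against saline, and 0.09, -0.13 and -0.03 in Gsdmd-/- against PIL. In Gsdmd-/- against saline it was -0.00093, -0.14 and -0.04. With 3 libraries per group these values cannot settle whether the numbers pair libraries, and the main fit did not pair them. With the replicate block edgeR called 962 genes in PIL against saline, 3 in Gsdmd-/- against PIL and 347 in Gsdmd-/- against saline, and Gsdmd in the last was called (-1.91, adjusted p = 0.0378, against 0.0601 without the block). Ciita and Serpinb6a were also called with it in PIL against saline (adjusted p = 0.02 and 0.03). Of the other genes named, the calls lost with it were Hexa (0.0509) and Calcr (0.0608) in PIL against saline, and Calcr (0.0744) and Dcn (0.069) in Gsdmd-/- against saline. Cd68 in Gsdmd-/- against saline was 0.013 with the block.

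For Gsdmd in PIL against saline, edgeR gave 0.70 (adjusted p = 0.319), limma-voom 1.39 (0.0075) and leaving out libraries 0.17 to 1.12. Against PIL, where edgeR did not call it (adjusted p = 0.127), DESeq2 gave -2.71 (1.69e-05), limma-voom -3.29 (0.000908), DESeq2 on 6 libraries -2.72 (1.46e-06) and leaving out libraries -3.02 to -2.18, with a call only without PIL-3 (0.014). Against saline (adjusted p = 0.0601), it was called by DESeq2 at -2.02 (0.00101), limma-voom at -1.90 (0.0332), edgeR on 6 libraries at -2.01 (0.0195) and DESeq2 on 6 libraries at -2.02 (3.67e-05). Leaving out libraries gave -2.29 to -1.59, with a call without Con-3, PIL-1 or PIL-2.

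Some values changed sign. Ctsw in PIL against saline was -0.30 by limma-voom and -0.38 to 1.11 without single libraries. Ctso in Gsdmd-/- against PIL was -0.043 by limma-voom and -0.039 to 0.14 without single libraries, and Ctsl in Gsdmd-/- against saline was -0.0029 by RLE, -0.0029 by DESeq2 and -0.00062 on 6 libraries. Leaving out single libraries, Ctsa in PIL against saline ranged from -0.074 to 0.29. In Gsdmd-/- against saline the ranges were -0.064 to 0.10 for Ctsb, -0.42 to 0.048 for Ctsc, -0.26 to 0.039 for Ctsd, -0.012 to 0.13 for Ctsh, -0.54 to 0.083 for Ctsk, -0.11 to 0.12 for Ctsl, -0.94 to 0.30 for Ctss, -0.035 to 0.14 for Ctsz, -0.049 to 0.24 for Hexa and -0.25 to 0.16 for Cd68. The number of members with shares that did not overlap ran from 2 to 7 in PIL against saline and from 2 to 4 in Gsdmd-/- against saline.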
